A study of Mus musculus with 6 samples.

Results

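Collagen genes encode the chains of the collagens, the most abundant proteins of the extracellular matrix. They were taken from a table of genes of mouse liver as every gene whose symbol has the form Col, a number, a and a number and whose transcript types include protein_coding. This gave 42 of the 30889 genes of the table. Col26a1 and Col19a1 have the symbol form but no protein-coding transcript type in the table and were left out, and 14 of the 42 list protein_coding as their single type. By textbook class, 11 are fibrillar, 6 are the type IV chains of basement membranes and 25 belong to other classes, among them the 6 chains of the type VI beaded filament, 8 chains of the fibril-associated collagens (FACIT) and the 2 multiplexins.

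The livers came from mice treated by mouth for 14 days with Emilia sonchifolia, a plant, given as a water extract (extract, 3 libraries), or with phosphate buffer saline (control, 3 libraries). The labels used here give no strain, age, sex or dose, and whether the libraries of a group came from different animals is not stated, so p-values cover spread among the libraries, part or all of which may be technical. The libraries are called extract 1 to 3 and control 1 to 3 after the numbers in their titles, and the comparison asks how the liver transcriptome of treated mice differed from that of controls.

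Every collagen is a trimer of chains wound into a triple helix. Fibrillar collagens, types I, III and V above all, are cleaved outside the cell and assemble into the fibrils that bear tension, whereas type IV collagen forms the sheet-like network of basement membranes. Type VI forms beaded filaments near cells, FACIT collagens sit on the surface of fibrils, and the multiplexins XV and XVIII are proteoglycans of basement membrane zones whose ends can be cleaved off (endostatin, from type XVIII). In healthy liver, hepatic stellate cells and portal fibroblasts make most fibrillar collagen, and hepatocytes are a known source of type XVIII.

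Libraries held 51219533 to 61432016 estimated counts over 22649 to 24178 genes above 0. Hepatocyte markers were high in every library, as the liver label requires: Alb, which encodes serum albumin, was at 25861 to 26186 FPKM (fragments scaled for transcript length and library size) with extract and at 25373 to 33353 FPKM in controls. Libraries differed in transcripts of other tissues, within and between the groups. Those of the pancreas were higher in sum in every extract library than in any control library, though control 3 came close. The summed level of 10 exocrine pancreas genes was 79.1, 83.5 and 90.1 FPKM in extract 1 to 3, against 5.94, 6.61 and 77.1 FPKM in control 1 to 3, and that of 10 skeletal muscle genes was 198 to 282 FPKM with extract, against 218, 160 and 1.004 FPKM in control 1 to 3. The skin keratin gene Krt5 was at 10.3 FPKM in extract 3 and at 9.90 FPKM in control 1 and was listed at 0 in the other libraries.

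Collagen transcripts of these livers were mostly Col18a1. Col18a1, the chain of the multiplexin type XVIII, stood at 117, 120 and 115 FPKM in extract 1 to 3, against 118, 115 and 109 FPKM in control 1 to 3. In FPKM the groups overlapped. In counts scaled by library size and TMM factors, on which edgeR's folds rest, they did not. These were 1015, 1028 and 1007 in extract 1 to 3, against 981, 942 and 915 in control 1 to 3. The log2 fold change of Col18a1, 0.10 ± 0.04 (SE), did not pass the test (edgeR adjusted p = 0.0819). Col18a1 made up 71.0, 74.6 and 74.2% of the summed collagen FPKM with extract, against 75.3, 73.9 and 76.4% in controls. DESeq2 and the fit without control 1 did call it higher, with adjusted p of 0.0347 and 0.0335.

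The next most abundant gene, Col14a1, a FACIT chain, averaged 5.34 ± 0.338 FPKM with extract and 5.98 ± 0.804 FPKM in controls (SD, n = 3 each) and did not pass (edgeR adjusted p = 0.496). All other collagen genes were below 7 FPKM in every library. In all, 14 genes averaged at least 1 FPKM over the 6 libraries, 16 averaged under 0.1 FPKM, and 34 were above 0 in each library.

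**Figure D1:**
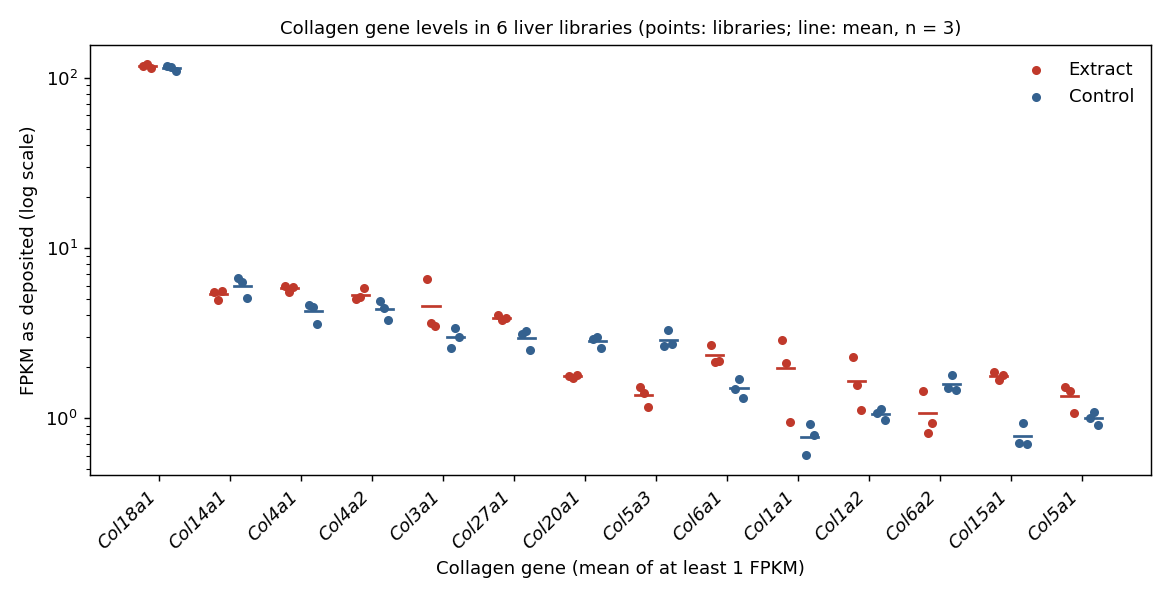
FPKM as deposited (log axis) of the 14 collagen genes that average at least 1 FPKM, in order of mean, with 1 point per library and a line at the mean of 3 libraries (extract red, control blue). Col18a1 lies between 109 and 120 FPKM in all 6 libraries, all other genes lie below 7 FPKM, and Col15a1, Col6a1, Col5a3 and Col20a1 are among those whose groups do not overlap.

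Of the 42 genes, 35 had enough counts for edgeR's quasi-likelihood test, and 11 of them rose and 3 fell with extract at an adjusted p under 0.05. Over all 18071 genes tested, 14.2% were called higher and 12.8% lower, 26.9% in either direction. The remaining 21 tested collagen genes were not called. Fold changes were above 0 for 22 collagen genes and below 0 for 13, with a median log2 fold change of 0.28, beside -0.02 over all genes tested. In 11 of the 35 genes every extract library lay above every control library in FPKM (17.7% over all genes tested), and in 7 every extract library lay below (26.9% over all genes tested). Genes without overlap in either direction made up 44.6% of all genes tested.

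The number called higher fell when any 1 library was left out, as did the share over all genes tested. It was 4 without extract 1, 5 without extract 2 and 9 without extract 3, where 10.5%, 9.4% and 10.3% of all genes tested were called higher. It was 7 without control 1, 4 without control 2 and 6 without control 3, where 12.7%, 9.73% and 13.5% were. The number called lower was 4 without extract 1, where Col6a2 joined, and 3 without each of the others, beside 7.82%, 7.73% and 8.87% of all genes without extract 1, 2 and 3 and 10.9%, 7.74% and 11.4% without control 1, 2 and 3. On log2(FPKM + 0.5), limma called 4 collagen genes higher and 3 lower, where 9.42% and 15.0% of all genes tested that way were called. The same counts came with a pseudocount of 0.1 (9.39% and 15.0% of all genes), with one of 1 (9.42% and 14.9%) and on TMM-scaled FPKM (12.9% and 11.2%), and 3 higher and 3 lower came with no filter on low values (5.04% and 7.67%). DESeq2 called 11 higher and 4 lower (12.3% and 10.9% of all genes), edgeR with no filter 7 and 3 (7.36% and 6.23%) and edgeR on counts divided by 4, the value at which low counts peak, 10 and 3 (18.0% and 16.8%). Of the 14 called genes, 6 kept their call and direction under all 16 alternatives: Col15a1, Col4a1 and Col6a1 were higher, and Col5a3, Col20a1 and Col11a2 were lower. Col27a1, also higher, lost its call in 1, limma with no filter on low values (adjusted p = 0.065).

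**Figure D2:**
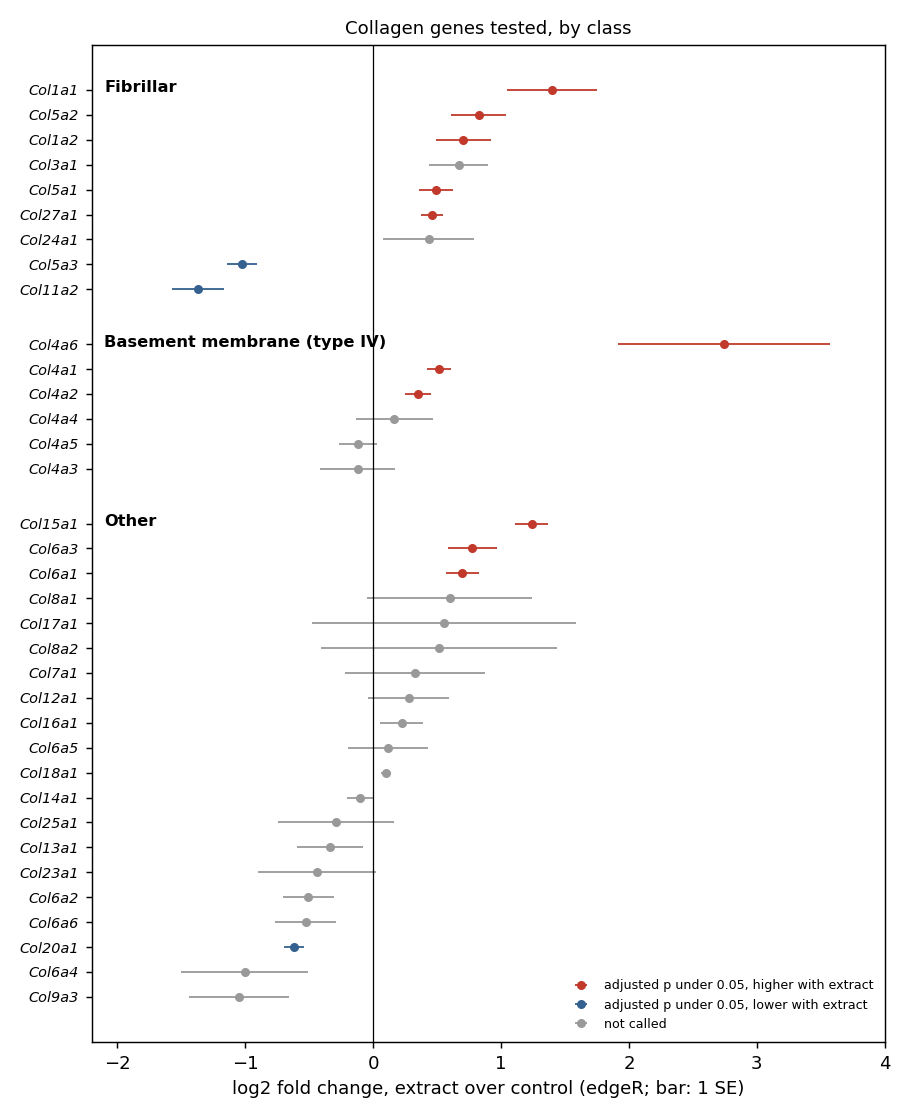
Log2 fold change (extract over control, edgeR, bar of 1 SE) of the 35 collagen genes tested, by class and in order of fold, with genes called higher in red, lower in blue and not called in grey. Among fibrillar genes the called folds run from -1.37 for Col11a2 to 1.40 for Col1a1, and the largest fold of all, 2.74 for Col4a6, has the widest error of the called genes.

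Among the fibrillar genes, chains of types I, V and XXVII rose, while other chains of types V and XI fell. Of 9 tested, 5 were called higher and 2 lower (55.6% and 22.2%, beside 14.2% and 12.8% over all genes tested). The median log2 fold change was 0.49. Col1a1, the major chain of type I collagen, had 2.86, 2.10 and 0.943 FPKM in extract 1 to 3, against 0.602, 0.922 and 0.792 FPKM in control 1 to 3. All 3 extract libraries were higher, but extract 3 exceeded control 2 only slightly. The mean was 1.97 ± 0.965 FPKM with extract, against 0.772 ± 0.161 FPKM in controls. From TMM-scaled counts, edgeR gave a 2.64-fold rise (log2 1.40 ± 0.35, edgeR adjusted p = 0.0215).

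Col1a2, the partner chain of type I, had 2.27, 1.57 and 1.11 FPKM in extract 1 to 3, against 1.06, 1.13 and 0.966 FPKM in control 1 to 3. In FPKM the groups overlapped, since extract 3 was below control 2. In TMM-scaled counts, taken relative to library size, they did not. There the lowest extract library, extract 3, was at 17.4 and the highest control library, control 2, at 16.4. The 1.63-fold rise was near the threshold (log2 0.71 ± 0.22, edgeR adjusted p = 0.0449, DESeq2 adjusted p = 0.0597). Col3a1, whose chain makes the homotrimeric type III collagen found in the same fibrils, had 6.56, 3.62 and 3.48 FPKM in extract 1 to 3, against 2.57, 3.39 and 3.01 FPKM in control 1 to 3. Its groups did not overlap, with extract 1 well above the others, but the log2 fold change of 0.67 ± 0.23 did not pass (edgeR adjusted p = 0.068).

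Type V collagen starts fibrils and limits their width. Its common chains went with type I: Col5a1 rose 1.41-fold (1.34 ± 0.242 FPKM with extract, 0.993 ± 0.087 FPKM in controls, edgeR adjusted p = 0.0284) and Col5a2 1.77-fold (0.564 ± 0.166 FPKM with extract, 0.330 ± 0.0204 FPKM in controls, edgeR adjusted p = 0.0254). In both genes extract 3 was the lowest extract library, and for Col5a1 it lay below control 2 in FPKM. In TMM-scaled counts relative to library size, Col5a1 did not overlap, with 11.4 in extract 3 and 10.8 in control 2. The third chain, Col5a3, moved the other way. It had 1.53, 1.39 and 1.15 FPKM in extract 1 to 3, against 2.65, 3.29 and 2.72 FPKM in control 1 to 3. The groups lay far apart, and the gene fell by 1.03 on the log2 scale (edgeR SE 0.12, adjusted p = 0.000579).

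The calls of Col1a1, Col1a2, Col5a1 and Col5a2 depended on which library was left out. Every fit without a library also called a smaller share of all genes higher. Without extract 3 each kept its call, with adjusted p between 0.00207 for Col1a1 and 0.0088 for Col1a2. Without extract 1 or extract 2 none of the 4 was called, and the adjusted p ran from 0.0749 for Col1a1 to 0.107 for Col5a1. Without control 1 or control 2 none was called either, and without control 3 only Col1a1 was (adjusted p = 0.0487). Fibrillar genes called higher numbered 1 without extract 1, extract 2, control 1 or control 2, and 2 without control 3. Limma on FPKM called none of the 4.

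Col27a1, the chain of type XXVII collagen, known mainly from cartilage, was steadier. It had 4.02, 3.76 and 3.89 FPKM in extract 1 to 3, against 3.11, 3.24 and 2.51 FPKM in control 1 to 3, and its 1.38-fold rise had a small error (log2 0.46 ± 0.09, edgeR adjusted p = 0.00689). Col11a2, a type XI chain also known from cartilage fibrils, was low in all libraries and fell furthest of the called genes. It had 0.164, 0.179 and 0.174 FPKM in extract 1 to 3, against 0.499, 0.541 and 0.356 FPKM in control 1 to 3. No extract library reached a control library, and it fell by 1.37 on the log2 scale (edgeR SE 0.20, adjusted p = 0.00215). Of the other fibrillar genes, Col24a1 was between 0.044 and 0.0733 FPKM and not called, and the cartilage genes Col2a1 and Col11a1 had too few counts to test.

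Summed over the fibrillar class, expression was 19.7, 14.8 and 12.3 FPKM in extract 1 to 3, against 11.9, 14.0 and 11.6 FPKM in control 1 to 3. The groups overlapped, and the ratio of the means, 1.25, was 1.08 without extract 1. Bulk liver cannot tell a change in the number of cells of a type from a change in RNA per cell, and this holds for every comparison here.

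The basement membrane genes Col4a1 and Col4a2 rose together. These neighbouring genes, read in opposite directions from a shared start region on chromosome 8, encode the chains of the common type IV collagen. Col4a1 had 5.94, 5.49 and 5.91 FPKM in extract 1 to 3, against 4.62, 4.48 and 3.58 FPKM in control 1 to 3. Its groups did not overlap, and it rose 1.43-fold (log2 0.51 ± 0.09, edgeR adjusted p = 0.00535). Col4a2 had 5.00, 5.14 and 5.77 FPKM in extract 1 to 3, against 4.85, 4.43 and 3.75 FPKM in control 1 to 3.

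Extract 1 exceeded control 1 only slightly for Col4a2, and the 1.27-fold rise (log2 0.35 ± 0.10, edgeR adjusted p = 0.0363) was called in 1 of the 6 fits without a library, that without control 1 (adjusted p = 0.0178), and otherwise had adjusted p of 0.0515 to 0.114. The 2 genes overlap by 22 bases in the table.

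Col4a6, a chain of specialised basement membranes, was called higher from very few counts. It had 16, 17 and 20 counts in extract 1 to 3, against 0, 4 and 4 counts in control 1 to 3. All extract libraries were above all control libraries, but a value of 4 counts is where the table's low values peak and may stand for a single read pair. Its log2 fold change of 2.74 ± 0.83 (edgeR adjusted p = 0.0422) was not called in any of the 6 fits without a library. Col4a3, Col4a4 and Col4a5, the chains of the network known from the kidney filter, were not called. Col4a5 was the highest of these, with 0.657, 0.857 and 0.623 FPKM in extract 1 to 3, against 0.855, 0.809 and 0.757 FPKM in control 1 to 3 (edgeR adjusted p = 0.602).

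Summed over the 6 type IV genes, expression was 11.8, 11.7 and 12.5 FPKM in extract 1 to 3, against 10.5, 9.85 and 8.27 FPKM in control 1 to 3. Every extract library lay above every control library, with means of 11.98 ± 0.440 FPKM with extract and 9.53 ± 1.14 FPKM in controls (SD, n = 3 each), a ratio of 1.26. Type IV genes called higher numbered 3 of 6 with all libraries (50.0%, beside 14.2% over all genes tested). They numbered 2 without control 1 and 1 in each of the other 5 fits without a library. Fits without a library called 9.4% to 13.5% of all genes tested higher.

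Outside these classes, 20 genes were tested, with a median log2 fold change of 0.11. Of these, 3 rose and 1 fell (15.0% and 5.0%, beside 14.2% and 12.8% over all genes tested). The clearest was Col15a1, the chain of type XV, the multiplexin related to Col18a1 and known from the basement membranes of muscle and small vessels. It had 1.86, 1.66 and 1.79 FPKM in extract 1 to 3, against 0.708, 0.936 and 0.703 FPKM in control 1 to 3. The lowest extract library was well above the highest control library, and the gene rose 2.36-fold (log2 1.24 ± 0.13, edgeR adjusted p = 0.000347), the smallest adjusted p of the 35 genes tested.

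The type VI chains diverged. Type VI filaments are built from the Col6a1 and Col6a2 chains with Col6a3 or, in some tissues, another long chain in its place. Col6a1 had 2.69, 2.14 and 2.16 FPKM in extract 1 to 3, against 1.49, 1.68 and 1.31 FPKM in control 1 to 3. All extract libraries were higher, by 1.62-fold (log2 0.70 ± 0.13, edgeR adjusted p = 0.00565). Col6a3 had 0.976, 0.673 and 0.646 FPKM in extract 1 to 3, against 0.534, 0.487 and 0.371 FPKM in control 1 to 3, again without overlap.

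The Col6a3 rise of 1.71-fold (log2 0.78 ± 0.19, edgeR adjusted p = 0.0197) was not called in 7 of the 16 alternatives. It lost its call without extract 1 (adjusted p = 0.0567) and without control 2 (0.0655). Limma on FPKM did not call it at any pseudocount, without the filter or on TMM-scaled FPKM. Col6a2 did not follow: it had 1.44, 0.815 and 0.934 FPKM in extract 1 to 3, against 1.49, 1.79 and 1.45 FPKM in control 1 to 3. In FPKM every extract library was below every control library, extract 1 by little. In TMM-scaled counts, taken relative to library size, the groups overlapped. These were 14.82, 8.32 and 9.77 in extract 1 to 3, against 14.79, 17.43 and 14.49 in control 1 to 3. The log2 fold change of -0.51 ± 0.20 did not pass (edgeR adjusted p = 0.0979). It did pass with DESeq2 (adjusted p = 0.0259) and without extract 1 (adjusted p = 0.0103). Col6a1 and Col6a2 lie near each other on chromosome 10, on the same strand. The alternative long chains Col6a4, Col6a5 and Col6a6 were each under 0.21 FPKM in every library and not called.

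Among the 5 FACIT genes tested, 1 fell and none rose. Col20a1, the chain of type XX collagen, had 1.77, 1.72 and 1.79 FPKM in extract 1 to 3, against 2.92, 2.98 and 2.56 FPKM in control 1 to 3. The replicates were tight and the groups far apart, and the gene fell by 0.62 on the log2 scale (edgeR SE 0.08, adjusted p = 0.000999). It overlaps 9230112E08Rik on the same strand by 741 bases, a gene with 276, 314 and 346 counts in extract 1 to 3 and 307, 312 and 254 counts in control 1 to 3, so some reads of the pair could have been shared. Col9a3, Col12a1, Col14a1 and Col16a1 were not called, with log2 fold changes of -1.05 ± 0.39, 0.28 ± 0.32, -0.10 ± 0.10 and 0.22 ± 0.17.

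None of the 4 transmembrane collagens passed the edgeR threshold (0 at an unadjusted p under 0.05, and 0 called by DESeq2 or limma). Col17a1, which anchors skin epithelium in hemidesmosomes, had 0.0444, 0.0469 and 0.582 FPKM in extract 1 to 3, against 0.333, 0.0767 and 0.071 FPKM in control 1 to 3. Its highest libraries, extract 3 and control 1, were those with the skin keratin Krt5, and the part of Krt5-bearing tissue in its level was not tested. Col7a1 and the network chains Col8a1 and Col8a2 were also not called. The 7 genes with too few counts to test were Col2a1, Col9a1, Col9a2, Col10a1, Col11a1, Col22a1 and Col28a1. None was above 0.126 FPKM in any library, and Col10a1 lies over Nt5dc1 on the opposite strand.

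The balance between chains of 1 trimer or 1 family was then compared within libraries, where library scaling cancels. The 5 pairs were chosen with the gene values known. The ratio of Col6a1 to Col6a2 was 1.87, 2.63 and 2.31 in extract 1 to 3, against 0.996, 0.941 and 0.902 in control 1 to 3. In FPKM, Col6a1 RNA thus stood near Col6a2 RNA in controls and above it in every extract library. The mean ratios were 2.27 ± 0.384 with extract and 0.946 ± 0.0472 in controls (SD, n = 3 each). Col6a1 had 758, 636 and 639 counts in extract 1 to 3, against 399, 545 and 366 in control 1 to 3. For Col6a2 the counts were 773, 461 and 527, against 762, 1098 and 769. The shift between the groups holds in both measures, while equality or excess depends on the scaling for transcript length. The ratio of Col6a3 to Col6a2 was 0.678, 0.825 and 0.691 in extract 1 to 3, against 0.358, 0.272 and 0.255 in control 1 to 3.

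The Col1a1 to Col1a2 ratio was 1.26, 1.34 and 0.847 in extract 1 to 3, against 0.567, 0.818 and 0.820 in control 1 to 3. For Col4a1 over Col4a2 it was 1.19, 1.07 and 1.02 with extract, against 0.951, 1.01 and 0.954 in controls. The groups met closely in both, at extract 3 and control 3 for type I and at extract 3 and control 2 for type IV. Col15a1 reached 0.0158, 0.0139 and 0.0157 of the Col18a1 level with extract, against 0.00601, 0.00815 and 0.00644 in controls. All 5 of these ratios were higher in every extract library. Other ratios computed overlapped between the groups and were lower on average with extract. Col3a1 over Col1a1 averaged 2.57 with extract and 3.91 in controls. For Col6a1 over Col6a3 the means were 3.09 and 3.26, and for Col3a1 over Col5a2 8.17 and 9.04. The two-sided exact permutation p was 0.1 for each of the 5, the smallest that 3 against 3 libraries allow. It was 0.1 after Benjamini-Hochberg adjustment over the 5. Since the pairs were chosen with the values known, these p-values describe the separation and do not test it.

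**Figure D3:**
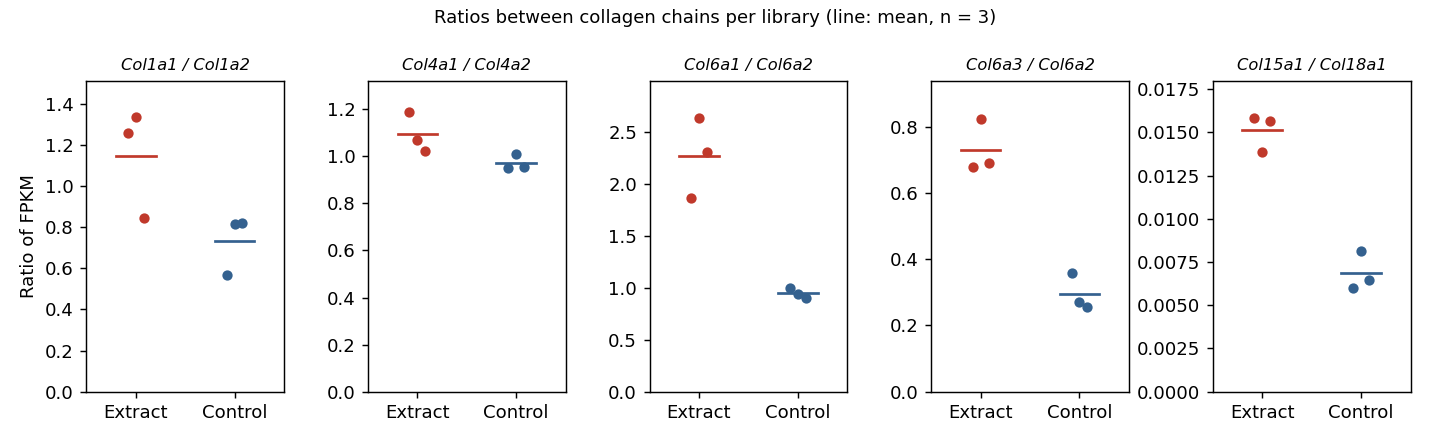
Ratio of FPKM between 2 collagen chains in each library (points; line at the mean of 3; extract left, control right; axes start at 0). Col6a1 over Col6a2 lies at 1.87 to 2.63 with extract and at 0.902 to 0.996 in controls, and no pair overlaps between the groups.

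**Figure D4:**
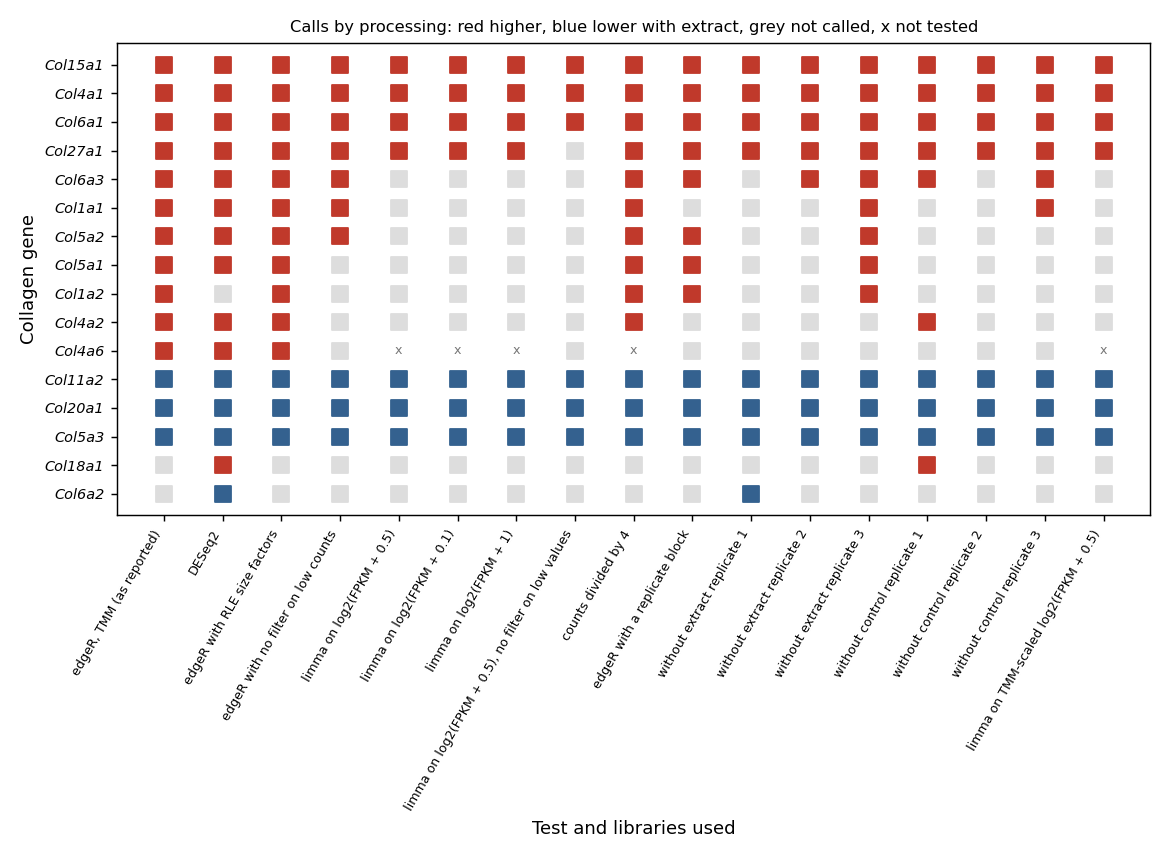
Call of each collagen gene named for its call (rows) under the reported test and 16 alternatives (columns): red called higher with extract, blue called lower, grey not called, x not tested. Col15a1, Col4a1, Col6a1, Col11a2, Col20a1 and Col5a3 are called in every column, and the fibrillar genes Col1a1, Col1a2, Col5a1 and Col5a2 are called without extract 3 but not without extract 1 or extract 2.

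The stretch before the start of 4 of the 7 most stable genes is printed because members that move in opposite directions can be set side by side there. These are the 250 bases upstream of the annotated start, 5′ to 3′ on the gene's strand, from RefSeq on GRCm38.p6, for the 4 genes whose stretch holds no annotated exon. The RefSeq start differs from the table's for Col15a1, Col27a1 and Col11a2. Capitals mark the CCAAT box, spelled CCAAT, the box spelled TATAAA, and the GC box, spelled GGGCGG, each searched on both strands, so that a GC box on the other strand appears as CCGCCC. No match overlaps another in these stretches. Col15a1 (chr4:47207762-47208011, plus strand) and Col27a1 (chr4:63215162-63215411, plus strand) belong to genes that rose, Col5a3 (chr9:20815068-20815317, minus strand) and Col11a2 (chr17:34038888-34039137, plus strand) to genes that fell.
Col15a1: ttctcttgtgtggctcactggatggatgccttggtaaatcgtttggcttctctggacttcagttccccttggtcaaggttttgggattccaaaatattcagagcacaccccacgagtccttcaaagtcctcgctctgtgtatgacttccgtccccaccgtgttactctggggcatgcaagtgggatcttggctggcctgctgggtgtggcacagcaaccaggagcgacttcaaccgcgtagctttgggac
Col27a1: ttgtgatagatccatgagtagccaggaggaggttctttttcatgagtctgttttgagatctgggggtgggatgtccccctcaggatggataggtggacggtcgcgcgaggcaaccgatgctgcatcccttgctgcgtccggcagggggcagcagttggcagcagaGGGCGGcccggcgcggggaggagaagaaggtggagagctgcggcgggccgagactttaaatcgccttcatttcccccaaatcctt
Col5a3: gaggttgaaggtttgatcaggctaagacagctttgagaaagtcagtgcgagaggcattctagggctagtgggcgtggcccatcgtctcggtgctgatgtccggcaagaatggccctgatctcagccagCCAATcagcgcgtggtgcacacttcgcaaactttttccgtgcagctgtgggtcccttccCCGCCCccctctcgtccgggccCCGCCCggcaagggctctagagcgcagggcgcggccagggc
Col11a2: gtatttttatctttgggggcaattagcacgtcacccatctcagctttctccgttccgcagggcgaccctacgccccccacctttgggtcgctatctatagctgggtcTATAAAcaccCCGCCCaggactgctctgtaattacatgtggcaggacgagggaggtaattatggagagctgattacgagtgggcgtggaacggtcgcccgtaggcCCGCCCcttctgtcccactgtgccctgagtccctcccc
Col15a1 held none of the 3 motifs in this stretch. Col27a1 held a GC box whose first base is 85 bases before the start. Col5a3 held a CCAAT box at 122 bases and GC boxes on the other strand at 63 and 41 bases, and Col11a2 a match to TATAAA at 143 bases and GC boxes on the other strand at 133 and 38 bases. Over the 37 stretches of the 34 collagen genes in the RefSeq table, 13 held CCAAT (35.1%), 5 held TATAAA (13.5%) and 22 held GGGCGG (59.5%). Over all 32851 stretches the shares were 33.8%, 12.4% and 32.7%, and the median GC content was 52.4%, beside 59.2% for the collagen genes. Motif matches describe letters only.

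The genes themselves lie, as the deposited table gives them on coordinates that match GRCm38, at chr4:47208161-47313167 on the plus strand (Col15a1, ENSMUSG00000028339), chr8:11198423-11312826 on the minus strand (Col4a1, ENSMUSG00000031502), chr10:76708792-76726168 on the minus strand (Col6a1), chr4:63214004-63333749 on the plus strand (Col27a1), chr9:20770050-20815067 on the minus strand (Col5a3), chr17:34039437-34066685 on the plus strand (Col11a2) and chr2:180986535-181017714 on the plus strand (Col20a1). The table's bounds of Col27a1 and Col20a1 differ from those of GENCODE release M21.

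Genes that make, process, remove and bind collagen were described with lists of textbook roles, whose counts stand beside 14.2% of all genes tested called higher and 12.8% called lower. The 21 tested enzymes and chaperones of collagen synthesis did not move one way: 5 rose (23.8%), 3 fell (14.3%), and the median log2 fold change was -0.07. Limma on FPKM called 3 higher and 4 lower. P4ha1, a catalytic subunit of the prolyl hydroxylase that stabilises the triple helix, had 2.33, 2.38 and 2.20 FPKM in extract 1 to 3, against 3.82, 3.90 and 3.94 FPKM in control 1 to 3, and fell by 0.69 on the log2 scale (edgeR SE 0.06, adjusted p = 0.000214). Ppib, a proline isomerase that acts in helix folding, fell by 0.27 (adjusted p = 0.00207). Mia3, which loads procollagen into secretory vesicles, rose by 0.37 on the same scale (adjusted p = 0.000387), and Colgalt1, a collagen galactosyltransferase, by 0.28 (adjusted p = 0.00321). P4hb, the shared subunit of the hydroxylase and the most abundant gene of the list, averaged 318 ± 5.3 FPKM with extract and 350 ± 8.43 FPKM in controls and was not called (adjusted p = 0.167).

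Of 11 genes for the cleavage of procollagen and for cross-links, 1 rose, Tgm2, a transglutaminase, by 0.29 on the log2 scale (edgeR adjusted p = 0.00221). Of 16 for collagen breakdown and its inhibition (the protease inhibitors Timp1, Timp2, Timp3 and Timp4), 3 rose (18.8%, near the share over all genes) and none fell. There were 2 called higher without extract 1 or extract 2, and limma on log2(FPKM + 0.5) called 3 higher and 1 lower. Mrc2, the receptor that takes up collagen fragments, had 0.367, 0.273 and 0.254 FPKM in extract 1 to 3, against 0.125, 0.108 and 0.104 FPKM in control 1 to 3, a 2.77-fold rise (log2 1.47 ± 0.24, edgeR adjusted p = 0.00308). The proteases Mmp19 and Mmp15 rose by 0.36 and 0.25 on the log2 scale (adjusted p = 0.00281 and 0.0302).

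Of 8 collagen receptor genes, 2 rose and 3 fell. There was 1 called higher without extract 3 or without control 2, 2 were called lower without extract 2, extract 3, control 2 or control 3, and limma on log2(FPKM + 0.5) called 1 higher and 1 lower. Itga1 and Itgb1, which pair as an integrin for collagen, rose by 0.22 and 0.26 on the log2 scale (edgeR adjusted p = 0.0164 and 0.0105), and Itga10 fell by 1.44 (adjusted p = 0.00302). Gp6, the platelet receptor for collagen, was listed at 0 in all extract libraries and at 0.0526 to 0.066 FPKM in controls (adjusted p = 0.00402).

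Of 21 genes for matrix proteins found with collagen, 6 rose (28.6%) and none fell, with a median log2 fold change of 0.31. Limma on log2(FPKM + 0.5) called 2 higher, with a median of 0.11. Fn1, encoding fibronectin, had 185, 189 and 187 FPKM in extract 1 to 3, against 163, 151 and 157 FPKM in control 1 to 3, and rose 1.24-fold (edgeR adjusted p = 0.00127). Lum, encoding lumican, which binds collagen fibrils, had 4.09, 3.19 and 3.63 FPKM in extract 1 to 3, against 1.13, 1.76 and 1.69 FPKM in control 1 to 3, and rose 2.48-fold (edgeR adjusted p = 0.00168). Tnxb and Fbn1, for tenascin X and fibrillin, rose by 0.71 and 0.68 on the log2 scale (adjusted p = 0.0166 and 0.027). The count of 6 was 2 without extract 1 and 3 without extract 2. Of 16 other basement membrane genes, 2 rose, the laminin chain Lamc1 by 0.39 and the proteoglycan Agrn by 0.28 on the log2 scale (edgeR adjusted p = 0.00226 and 0.00826). There were 3 called higher without control 1, and limma on log2(FPKM + 0.5) called 1.

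**Figure D5:**
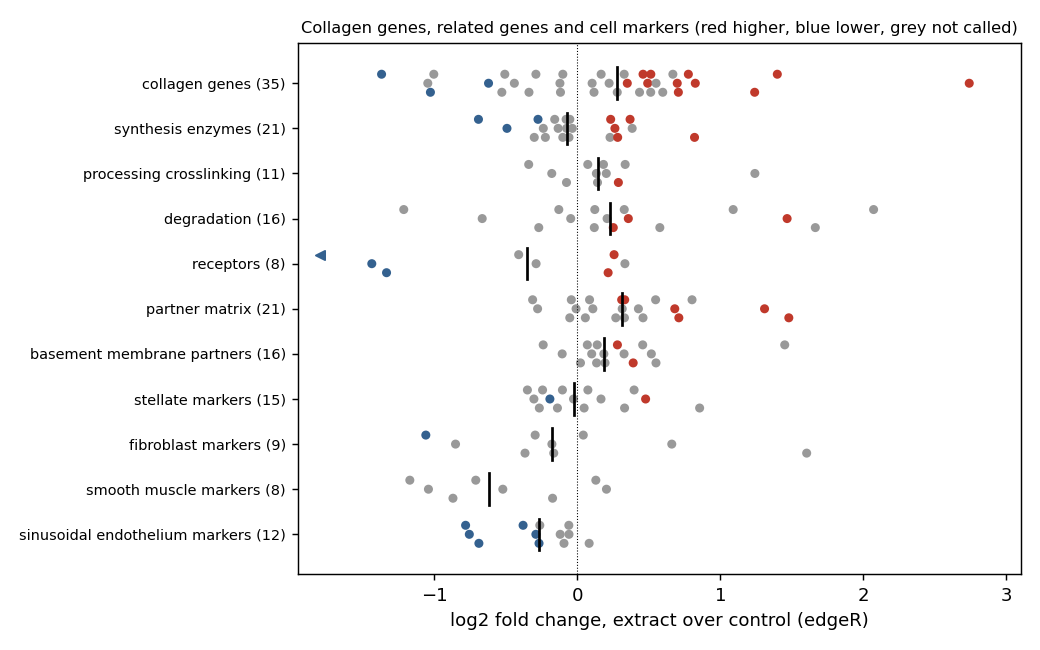
Log2 fold change (extract over control, edgeR) of each tested gene of the collagen genes, of the lists for collagen handling and of the marker lists, with the number tested in parentheses and a black bar at the median. Red is called higher, blue called lower, grey not called; Gp6, at 0 in all extract libraries, is off the scale and drawn as an arrowhead. The median is 0.28 for collagen genes, -0.07 for synthesis enzymes and -0.26 for sinusoidal endothelium.

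Markers of the cell types that make collagen did not move as 1 group. Of 15 stellate cell markers 1 rose (Pdgfrb, log2 0.48, edgeR adjusted p = 0.0258) and 1 fell (Reln, log2 -0.19, adjusted p = 0.0468). Their summed level was 88.3 to 89.6 FPKM with extract and 84.2 to 109 FPKM in controls, and without control 3, 1 was higher and 4 were lower. None was called lower in the other 5 fits without a library, and none higher without extract 1 or extract 2. Of 9 fibroblast markers 1 fell (Thy1, log2 -1.06, adjusted p = 0.0101) and none rose, with summed levels of 4.54 to 7.20 FPKM with extract and 6.16 to 7.57 FPKM in controls. Without control 1, 1 of 10 tested was also called higher, and without control 3, 2 were called lower. Extract 1, the highest library for Col1a1, Col1a2 and Col3a1, had the highest fibroblast sum of the extract libraries. The sums were 7.20, 4.54 and 5.07 FPKM in extract 1 to 3 and 6.16, 7.57 and 7.02 FPKM in control 1 to 3. Col1a1 was at 2.86, 2.10 and 0.943 FPKM in extract 1 to 3 and at 0.602, 0.922 and 0.792 FPKM in control 1 to 3.

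None of 8 smooth muscle markers was called by edgeR (1 at an unadjusted p under 0.05, 0 by DESeq2), and their sums overlapped, at 14.4 to 18.2 FPKM with extract and 12.7 to 24.6 FPKM in controls. Without control 1, 1 was called higher and 5 lower. Of 12 markers of sinusoidal endothelium 6 fell and none rose, led by Stab1, Stab2 and Mrc1, which are scavenger receptors, with falls of 0.78, 0.38 and 0.76 on the log2 scale (edgeR adjusted p = 0.000501, 0.000506 and 0.000525). Their sum was 53.7 to 57.5 FPKM with extract, against 68.1 to 75.7 FPKM in controls, without overlap, and 3 were called without extract 1 or without control 3. Of 6 mesothelial markers 2 rose, Upk3b and Msln, from a list with a summed level of 0.652 to 0.97 FPKM with extract and 0.722 to 0.86 FPKM in controls. In 5 of the 6 fits without a library, all but that without control 1, 1 mesothelial marker was called. The skeletal muscle and pancreas lists had no called gene with all libraries, by edgeR, DESeq2 or limma (0 at an unadjusted p under 0.05 by edgeR). Limma on log2(FPKM + 0.5) had 9 of 10 pancreas genes at an unadjusted p under 0.05. With the replicate number as a block in edgeR there were 6, and with DESeq2 1. Without control 3, 1 of 10 skeletal muscle genes and all 10 pancreas genes were called higher. The part of any of these cells in the collagen results was not tested.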

How the data were processed

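The deposited table gives 2 values per gene and library, per the file headers: estimated counts (whole numbers, used as deposited) and FPKM computed by the authors. Per the submitters' processing notes the tools were HISAT2 2.0.4, cutadapt 1.9, StringTie 1.3.4d and edgeR, with no settings. For genome build and strand, nothing is stated in the sources used here. Among the 30889 gene IDs, 30796 (99.7%) are in GENCODE release M21 on GRCm38, where 90.5% of them have the same coordinates, as have 37 of the 42 collagen genes; 17 of the 42 overlap another gene of the table. Low counts peak at 4 (6292 entries, beside 4117 at 3 and 2133 at 5), so how the counts were estimated limits genes of a few counts. Another 6 value columns match no sample and were not used.

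All genes were fitted together with edgeR 4.0.16 in R 4.3.3: filterByExpr (18071 genes kept), TMM factors and the two-sided quasi-likelihood test, with Benjamini-Hochberg adjustment over all genes tested and a threshold of 0.05. Called higher or lower means past that threshold. FPKM gave levels, sums and ratios. Folds of single genes are edgeR's from TMM-scaled counts, so they can differ from the ratio of the FPKM means printed beside them. Alternatives were DESeq2 1.42.0, edgeR with RLE factors, without the filter, on counts divided by 4 and with a replicate block, limma 3.58.1 on log2(FPKM + 0.5), also with pseudocounts of 0.1 and 1 and without its filter of 0.1 FPKM, and leaving out each library. Limma on TMM-scaled FPKM was added after seeing the data. The fits were tested on simulated data.

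The collagen genes, their classes and the lists were chosen with earlier results of these data known. Genes named are every called collagen gene, the 12 with the highest FPKM, those whose call changed in an alternative and, of each list, up to 4 called genes with the smallest p and the most abundant gene; others are named to account for all 42. Markers Lep, Acan and Tf were not analysed here. Of the lists not described above, 7 cholangiocyte markers had 1 called higher (0 without extract 1, extract 3, control 2 or control 3) and 1 lower (3 without control 1), 3 adipocyte markers 1 higher, 2 cartilage, bone and skin markers none (0 at an unadjusted p under 0.05, 0 by DESeq2), and 9 hepatocyte markers 4 higher and 3 lower (1 lower without extract 1, extract 2 or control 2).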

Additional observations from a re-analysis of the deposited data

How the results depend on the processing

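None of the 14 called collagen genes changed direction in any alternative that tested it. Of the 21 not called, 6 had a log2 fold change of the other sign, without a call, in at least 1 alternative. Over the fits without 1 library, their log2 fold changes were -1.71 to 1.67 for Col17a1, -0.64 to 1.58 for Col8a2, -0.57 to 0.72 for Col7a1, -0.18 to 0.49 for Col12a1, -0.28 to 0.076 for Col4a3 and -0.076 to 0.37 for Col6a5. The other sign came without extract 3 for Col17a1, without extract 1 for Col8a2, without extract 2 for Col7a1 and Col12a1, without control 3 for Col4a3 and without extract 1 or control 1 for Col6a5, and with the replicate block for Col17a1 (-0.16). The number of collagen genes called higher, 11 as reported, was 7 with edgeR and no filter, 4 with limma on log2(FPKM + 0.5) and with pseudocounts of 0.1 and 1, 4 on TMM-scaled FPKM and 3 with limma and no filter. It was 4 to 9 when 1 library was left out. The number called lower stayed at 3 or 4 throughout. The median collagen log2 fold change, 0.28 as reported, was 0.052, 0.055 and 0.043 with limma at pseudocounts of 0.5, 0.1 and 1, 0.032 with no filter and 0.097 on TMM-scaled FPKM, where the FPKM fits tested 27 genes or all 42 rather than 35. Over all genes tested, the medians of these fits were -0.053, -0.073, -0.040, -0.019 and -0.0058 in the same order, beside -0.018 as reported. The cause of the difference between the fits was not tested. The basement membrane ratio of summed FPKM, 1.26, was 1.06 when Col15a1, Col18a1 and Col7a1 were counted in that class. The ratio of the other genes, 1.02, was then 0.918. Col18a1 averaged 117 of the 131 FPKM of the wider class with extract and 114 of 124 FPKM in controls. Of the 9 genes of the wider class, 4 were called higher (44.4%, beside 14.2% over all genes tested) and none lower. Without 1 library the ratios of 1.26 and 1.02 were 1.18 to 1.32 and 0.999 to 1.04. Genes of a few counts, such as Col4a6, are limited by depth.

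The replicate numbers shared by the groups did not pair the libraries: deviations of same-numbered libraries correlated at -0.12, -0.03 and -0.09. With the replicate number as a block, 8 collagen genes were called higher and 3 lower, where 11.3% and 9.42% of all genes tested were called, and the median was 0.17. The matrix protein list then had 3 of 21 called higher.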
